A study of Mus musculus with 15 samples.

Results

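The genes described here encode the nuclear part of the mitochondrial respiratory chain and the ATP synthase, in lungs taken before metastases form in a mouse model of osteosarcoma. They were chosen by name from the protein-coding rows of the count table, as every gene starting with Nduf, Uqcr, Atp5 or Cox4 to Cox8, together with Sdha, Sdhb, Sdhc and Sdhd. This gave 92 of 46603 genes. They are 36 subunits of complex I, 7 complex I assembly factors (the Ndufaf genes), 4 subunits of complex II, 8 of complex III, 19 of complex IV, 15 of the ATP synthase and 3 accessory genes (Cox7a2l, Atp5s and Atp5sl). Of the 92 genes, 90 passed the filter on low counts and were tested. Cox8c had 0 counts in every lung, and Cox7b2 had 14 counts over all lungs.

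All mice were athymic Swiss nude (Foxn1nu/nu) animals aged 8 to 12 weeks, which lack a working thymus and so have few T cells. RNA came from the whole lung, 1 library per lung, in 3 groups. CTR lungs (n = 4, numbered 1, 2, 4 and 5) came from control mice. SCR lungs (n = 6) came from mice given the secretome of the human osteosarcoma line 143B, 25 µL a day into the peritoneum for 1 week. PT lungs (n = 5, numbered 1, 2, 3, 5 and 6) came from mice bearing a primary tumour under the skin of the flank, grown from 500000 luciferase-expressing 143B cells to 50 to 60 cubic millimetres. Both treatments rest on 1 cell line, and the labels do not pair the lungs of different groups. Sex, as read from the libraries, was male in all CTR lungs, SCR lungs 1, 2, 3 and 5 and PT lungs 1, 2 and 6. SCR lungs 4 and 6 and PT lungs 3 and 5 were female. Values without SCR lungs 1 to 3 therefore set mostly female SCR lungs against male CTR lungs. Total counts per lung were 12767431 to 22109856. CPM below are counts scaled to a common library size after TMM normalization, and log2 fold changes are those of edgeR's quasi-likelihood fit to all 15 lungs.

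The respiratory chain sits in the inner mitochondrial membrane. Complexes I and II take electrons from NADH and succinate, complex III passes them to cytochrome c, and complex IV hands them to oxygen, while complexes I, III and IV pump the protons that drive the ATP synthase. The mitochondrial genome encodes a few core subunits, and all others, among them the small accessory subunits that surround the catalytic cores, are nuclear genes. Nuclear respiratory factor 1 (NRF1), the ETS factor GABP and YY1 are known as regulators of many of these genes.

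Promoters of 76 members were found in the RefSeq table (GRCm38.p6), each running from 250 bases before to 50 bases after the annotated start. The NRF1 core GCATGCGC, on either strand, was present in 12 of them (15.8%), against 2.8% of all 27025 promoters. The ETS motif CCGGAAGT was present in 5 (6.58%, against 4.0%) and the YY1 motif AAGATGGCG in 7 (9.21%, against 1.49%). A match is a string of letters and no evidence of binding. The 4 promoters printed here show one example of each motif among genes described below, plus Atp5l and Ndufa6, the only members with an unadjusted p under 0.05 between PT and SCR lungs. They lie at chr9:44920693-44920992 (Atp5l), chr15:82354242-82354541 (Ndufa6), chr4:116075021-116075320 (Uqcrh) and chr13:114388045-114388344 (Ndufs4), all on the minus strand, and run 5′ to 3′ along the gene with the motif in capitals.
Atp5l, NRF1 core: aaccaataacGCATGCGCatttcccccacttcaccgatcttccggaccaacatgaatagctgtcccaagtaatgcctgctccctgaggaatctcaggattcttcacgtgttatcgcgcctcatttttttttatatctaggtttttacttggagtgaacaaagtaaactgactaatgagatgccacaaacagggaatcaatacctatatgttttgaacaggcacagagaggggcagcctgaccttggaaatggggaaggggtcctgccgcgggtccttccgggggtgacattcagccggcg
Ndufa6, NRF1 core: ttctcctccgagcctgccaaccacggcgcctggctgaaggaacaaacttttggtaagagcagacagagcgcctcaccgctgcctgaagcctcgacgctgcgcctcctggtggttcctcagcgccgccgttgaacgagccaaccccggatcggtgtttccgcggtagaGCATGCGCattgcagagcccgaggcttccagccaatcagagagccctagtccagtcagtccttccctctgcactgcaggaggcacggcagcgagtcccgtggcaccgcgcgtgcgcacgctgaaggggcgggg
Uqcrh, ETS motif on the opposite strand: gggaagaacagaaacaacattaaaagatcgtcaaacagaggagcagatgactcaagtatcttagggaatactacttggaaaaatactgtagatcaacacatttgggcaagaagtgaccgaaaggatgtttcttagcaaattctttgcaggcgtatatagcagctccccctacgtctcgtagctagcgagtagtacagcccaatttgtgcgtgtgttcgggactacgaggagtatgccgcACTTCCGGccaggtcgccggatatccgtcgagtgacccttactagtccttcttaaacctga
Ndufs4, YY1 motif: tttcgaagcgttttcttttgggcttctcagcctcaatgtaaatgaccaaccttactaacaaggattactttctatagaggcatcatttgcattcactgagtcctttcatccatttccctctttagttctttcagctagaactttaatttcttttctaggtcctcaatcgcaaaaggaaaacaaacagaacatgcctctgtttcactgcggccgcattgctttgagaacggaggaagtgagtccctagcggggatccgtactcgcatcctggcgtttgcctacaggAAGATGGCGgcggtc
The median log2 fold change of SCR against CTR lungs was 0.27 in members with the NRF1 core and 0.38 in those without it. It was 0.38 and 0.36 for the ETS motif, and 0.44 and 0.36 for the YY1 motif.

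Markers of several cell types set SCR lungs 1 to 3 off from the rest. The mean log2 CPM of 7 mesothelial markers, all detected, was 3.23, 1.49 and 0.34 in these lungs, 4.62 to 5.23 in SCR lungs 4 to 6, 3.94 to 5.10 in the CTR lungs and 3.45 to 5.17 in the PT lungs. The 8 B cell markers stood at 3.51, 2.79 and 3.77, against 5.07 to 6.50 in all other lungs, and the 8 fibroblast markers at 7.64, 7.69 and 7.49, against 7.92 to 8.71. Club cell markers, of the secretory cells of the airways, were highest in SCR lungs 3 and 1 (11.1 and 10.7, against 8.62 to 10.2 in the others). The 8 markers of alveolar type 2 cells were at 10.14 to 11.01 in every lung, as the label of lung tissue implies. In bulk RNA, fewer cells of a type and less RNA per cell cannot be told apart, and the part of these cell types in the levels below was not tested. The medians by complex in SCR against CTR lungs, and the log2 fold changes of most leading genes, are therefore given with and without SCR lungs 1 to 3.

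Levels of the respiratory chain genes were highest in 2 lungs of SCR-treated mice. The mean log2 CPM of the 90 tested members was 5.58, 5.78, 5.51 and 5.47 in the CTR lungs. In the SCR lungs 1 to 6 it was 6.49, 5.85, 6.301, 5.52, 5.48 and 5.58, and in the PT lungs it was 5.96, 5.59, 5.76, 5.77 and 5.87. SCR lungs 1 and 3 stood above all other lungs. SCR lung 2 and PT lungs 1 and 6 lay above the highest control by less, and SCR lungs 4 to 6 and PT lungs 2, 3 and 5 lay within the range of the controls. As a ratio of geometric means, the members were 1.88-fold higher in SCR lung 1 and 1.64-fold higher in SCR lung 3 than in the CTR lungs. SCR lung 1 held the highest value of 67 of the 90 members and SCR lung 3 that of 12. SCR lungs 1 and 3 were the top pair, in this order, in 55 members and in the other order in 11.

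**Figure D1:**
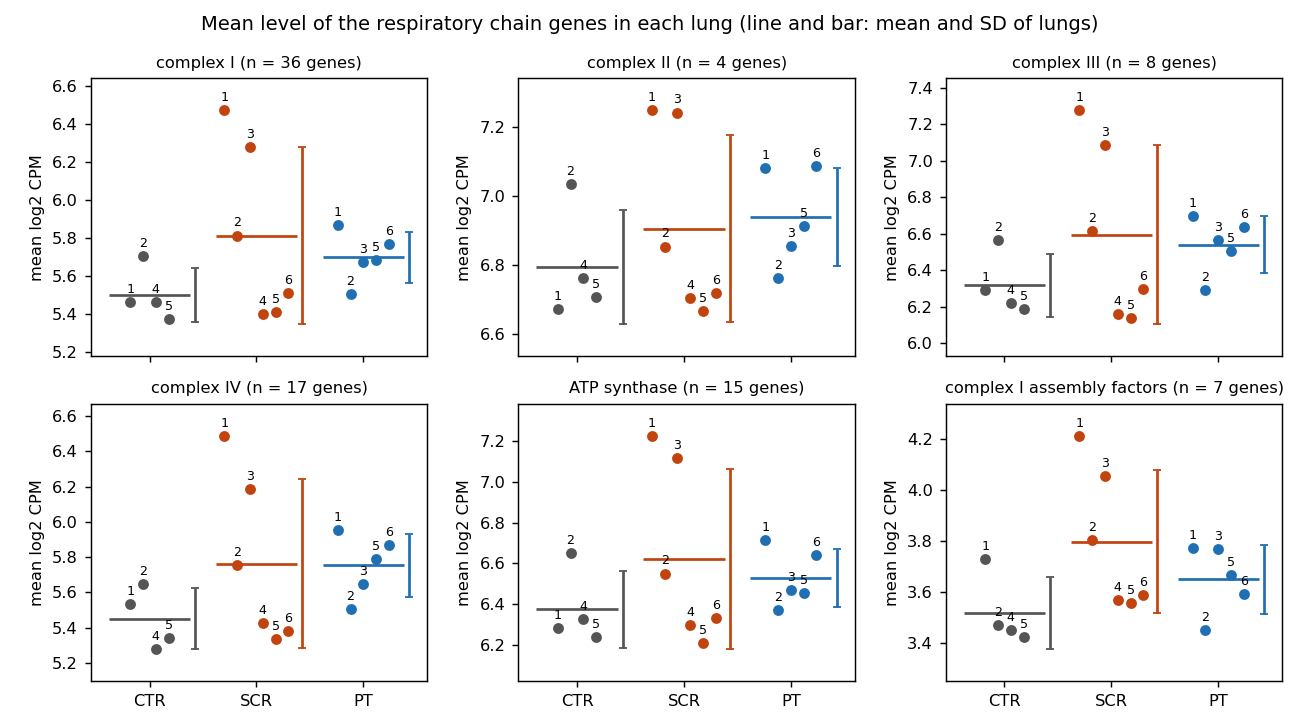
Mean log2 CPM (vertical axis) of the genes of each complex in every lung, by group (horizontal axis), where each point is 1 lung with its number, the line is the group mean and the bar its SD. In all 6 panels SCR lungs 1 and 3 are the highest, and SCR lungs 4 to 6 lie near the CTR lungs.

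In SCR against CTR lungs, 80 of the 90 members had a log2 fold change above 0, with a median of 0.35 (range -0.30 to 0.99), against 0.01 over all 15870 genes tested. At an unadjusted p under 0.05, 26 members were higher and 0 lower. Over all genes, 8.58% were higher and 10.2% lower at this threshold. No member passed the Benjamini-Hochberg adjusted threshold of 0.05, which 0.113% of all genes passed (18 genes). DESeq2 put 30 members under an unadjusted p of 0.05, all higher, and called 1 after adjustment (Ndufab1, adjusted p = 0.0458). Of its 27075 genes, DESeq2 put 6.16% higher and 6.31% lower at the unadjusted threshold and called 560 after adjustment. With sex as a covariate in edgeR, 42 members were higher and 0 lower at the unadjusted threshold (median 0.43). The shares of all genes were then 10.8% and 10.7%, and no member passed the adjusted threshold. In no member did every SCR lung lie above every CTR lung, a pattern found in 1.49% of all genes. The 26 members are therefore described as higher at an unadjusted p, with no call.

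Complex I is the entry point for NADH and the largest complex. Of 36 subunits, 33 had a positive log2 fold change, 12 of them at an unadjusted p under 0.05 (median 0.41). The 7 core subunits, which carry the flavin and the iron-sulphur clusters or form the quinone site, had a median of 0.14, and the 29 supernumerary subunits a median of 0.44, a difference that was not tested. Without SCR lungs 1 to 3 the medians were -0.06 for the complex, -0.16 for the core and -0.05 for the supernumerary subunits, with 11 of 36 above 0. Ndufs1 and Ndufv1, which hold the clusters and the flavin of the NADH-oxidising arm, had log2 fold changes of -0.10 (standard error 0.13) and -0.06 (0.17). The core subunit Ndufv2 had 0.47 (0.22, edgeR adjusted p = 0.266).

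Ndufab1, the mitochondrial acyl carrier protein that is also a complex I subunit (chr7:122085403-122101886), had the smallest p of all members. It measured 23.3, 19.2, 20.3 and 22.8 CPM in the CTR lungs and 22.7 to 34.5 CPM in the SCR lungs (median 27.8). PT lungs measured 26.4, 23.6, 26.2, 28.1 and 24.4 CPM. The lowest SCR lung fell inside the range of the CTR lungs and the other 5 above it. The log2 fold change of SCR against CTR was 0.41 (standard error 0.13, edgeR adjusted p = 0.129). Of the short windows of its main transcript, 31.2% also occur in transcripts of other genes (11 genes). Reads from these windows cannot be assigned with certainty, so part of the Ndufab1 counts is uncertain.

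Ndufs5, a small subunit of the membrane arm facing the intermembrane space (chr4:123712710-123718202), had the largest log2 fold change of the members, 0.99 (standard error 0.32, edgeR adjusted p = 0.144). It measured 12.7, 5.52, 13.5 and 5.29 CPM in the CTR lungs and 12.2 to 28.7 CPM in the SCR lungs (median 15.2), and 9.60, 11.9, 9.81, 17.4 and 14.1 CPM in the PT lungs. The CTR lungs themselves split into a high and a low pair, and the lowest SCR lung lay below the high pair. Of the 50-base windows of its main transcript, 41.2% also occur in transcripts of another gene. Without SCR lungs 1 to 3 its log2 fold change was 0.54. Reads from the shared windows cannot be assigned with certainty, and how the counting treated them is not given in the sources used here.

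Ndufb3, a small subunit of the membrane arm (chr1:58586384-58595964), measured 37.1, 40.04, 37.4 and 38.9 CPM in the CTR lungs. The SCR lungs spanned 38.3 to 92.3 CPM (median 51.4), and the PT lungs measured 52.3, 41.6, 50.5, 43.1 and 45.9 CPM. The control values were tight, and SCR lungs 1 and 3, at 92.3 and 69.9 CPM, were the highest of all. The log2 fold change of SCR against CTR was 0.58 (standard error 0.20, edgeR adjusted p = 0.156), and 0.18 without SCR lungs 1 to 3.

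Assembly factors of complex I are not part of the finished enzyme. All 7 had a positive log2 fold change (median 0.22), 2 at an unadjusted p under 0.05. Ndufaf2, which binds a late assembly intermediate and leads them per file gene length at 14.4 CPM per kilobase (per main transcript length, Ndufaf3 leads at 16.7), measured 9.96, 7.38, 7.32 and 5.67 CPM in the CTR lungs and 7.90 to 20.9 CPM in the SCR lungs (median 9.98). Its log2 fold change was 0.65 (standard error 0.26, edgeR adjusted p = 0.203). Ndufaf4 measured 24.4, 7.98, 12.02 and 16.4 CPM in the CTR lungs and 18.4 to 25.4 CPM in the SCR lungs (median 21.99). CTR lung 1 lay above the SCR median, while the other CTR lungs lay below every SCR lung. The corresponding log2 fold change was 0.53 (standard error 0.24, edgeR adjusted p = 0.244). Leaving out SCR lungs 1 to 3 put Ndufaf2 at 0.24, Ndufaf4 at 0.39 and the median of the 7 factors at 0.03.

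Complex II, which is also the succinate dehydrogenase of the citric acid cycle, had a median log2 fold change of 0.14 (-0.07 without SCR lungs 1 to 3) and 0 of 4 subunits at an unadjusted p under 0.05. Sdha, the flavoprotein, measured 204, 267, 240 and 198 CPM in the CTR lungs and 191 to 258 CPM in the SCR lungs (median 209). Its log2 fold change was -0.06 (standard error 0.13). Sdhd, a membrane anchor and the subunit with the largest level per file gene length (84.0 CPM per kilobase, while Sdhb leads per main transcript length at 90.3), measured 86.7, 106, 83.7 and 93.7 CPM in the CTR lungs and 90.2 to 148 CPM in the SCR lungs (median 101), with a log2 fold change of 0.28 (0.16). The groups overlapped for both genes.

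Complex III had a median log2 fold change of 0.39 in SCR against CTR lungs, and of -0.13 with 2 of 8 subunits above 0 when SCR lungs 1 to 3 were left out. Its 2 members at an unadjusted p under 0.05 were Uqcrb and Uqcrh, small subunits of the enzyme. Uqcrb (chr13:66900617-66905378) measured 85.0, 68.7, 59.7 and 56.1 CPM in the CTR lungs and 65.8 to 178 CPM in the SCR lungs (median 93.9), with a log2 fold change at 0.68 (standard error 0.26, edgeR adjusted p = 0.19). Of its 50-base windows, 43.4% also occur in other genes. Uqcrh, the acidic hinge protein beside cytochrome c1 (chr4:116066965-116075071), measured 125, 163, 109 and 122 CPM in the CTR lungs and 119 to 331 CPM in the SCR lungs (median 167), with a log2 fold change at 0.60 (standard error 0.26, edgeR adjusted p = 0.225). The values were 0.11 for Uqcrb and 0.06 for Uqcrh without SCR lungs 1 to 3. Uqcrh and Uqcr10 shared the largest level per file gene length, 133 CPM per kilobase, and per main transcript length Uqcrh was at 301 and Uqcr10 at 179. The 2 large core proteins had log2 fold changes of -0.01 (standard error 0.16, Uqcrc1) and 0.02 (0.16, Uqcrc2), and Uqcrfs1, the Rieske iron-sulphur protein, 0.26 (0.16).

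Complex IV, the cytochrome c oxidase, has its catalytic core encoded in the mitochondrial genome, and its nuclear subunits surround that core. Of 17 tested subunits, 15 had a positive log2 fold change (median 0.32), 6 of them at an unadjusted p under 0.05, which were Cox6c, Cox7c, Ndufa4, Cox7a2, Cox7b and Cox5a. Cox6c, a small membrane-spanning subunit (chr15:35925886-35938246), measured 110, 118, 99.8 and 104 CPM in the CTR lungs and 109 to 295 CPM in the SCR lungs (median 151). SCR lungs 1, 2 and 3 lay above every CTR lung, at 295, 178 and 269 CPM, and lungs 4 and 5 within the CTR range. On the log2 scale the fold change was 0.75 (standard error 0.26, edgeR adjusted p = 0.161). It was 0.11, and the median of the complex -0.02, when SCR lungs 1 to 3 were left out.

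Cox7c, another small membrane-spanning subunit, measured 47.2, 52.3, 41.2 and 53.9 CPM in the CTR lungs and 43.7 to 134 CPM in the SCR lungs (median 64.8). Its log2 fold change was 0.61 (standard error 0.26, edgeR adjusted p = 0.225), with 53.0% of its windows shared with other genes. Ndufa4, once counted to complex I and now to complex IV, measured 136, 149, 124 and 121 CPM in the CTR lungs and 122 to 357 CPM in the SCR lungs (median 167). Its fold change on the log2 scale was 0.64 (standard error 0.28, edgeR adjusted p = 0.243), and none of its windows is shared. Cox7c was at 0.03 without SCR lungs 1 to 3. In all of these genes the lowest SCR lungs lay inside the CTR range. Cox6b1, which faces the intermembrane space and has the largest level per length of all members (250 CPM per kilobase of the file's gene length, while Ndufa4 leads at 373 per kilobase of main transcript), measured 103, 142, 106 and 92.9 CPM in the CTR lungs and 96.1 to 212 CPM in the SCR lungs (median 118), a log2 fold change of 0.30 (0.22).

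The ATP synthase turns the proton gradient into ATP. Its 15 genes had a median log2 fold change of 0.29, and of -0.07 without SCR lungs 1 to 3. The 5 genes of the F1 head and central stalk had a median log2 fold change of -0.02, and the 10 genes of the membrane part and peripheral stalk a median of 0.38, with all 10 above 0. These medians were -0.30 and -0.04 without SCR lungs 1 to 3, and the difference between the classes, chosen after values were seen, was not tested. Atp5b, the catalytic beta subunit, measured 549, 784, 634 and 496 CPM in the CTR lungs and 431 to 709 CPM in the SCR lungs (median 522), a log2 fold change of -0.14 (standard error 0.17). Atp5a1, the alpha subunit, which had the largest level per file gene length (168 CPM per kilobase, while Atp5h leads per main transcript length at 334), had a log2 fold change of -0.07 (0.17). Atp5e, the very small epsilon subunit of the central stalk, measured 85.7, 119, 85.4 and 80.0 CPM in the CTR lungs and 87.9 to 241 CPM in the SCR lungs (median 115), a log2 fold change of 0.61 (0.26, edgeR adjusted p = 0.218).

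In the membrane part and stalk, Atp5j, the coupling factor 6 of the peripheral stalk, measured 126, 113, 91.9 and 108 CPM in the CTR lungs and 115 to 217 CPM in the SCR lungs (median 135). Its log2 fold change was 0.49 (standard error 0.19, edgeR adjusted p = 0.188). Atp5l, subunit g of the membrane part, had a log2 fold change of 0.96 (0.35, edgeR adjusted p = 0.166) at 0.668 to 1.12 CPM in the CTR lungs and 0.762 to 3.15 CPM in the SCR lungs. It had only 282 counts over all lungs, and 84.9% of its windows occur in other genes, so its counts are uncertain. Without SCR lungs 1 to 3 the log2 fold changes were 0.09 for Atp5e, 0.14 for Atp5j and 0.64 for Atp5l. Among the 3 accessory genes, Atp5s (coupling factor B) was at 11.7, 6.56, 6.77 and 8.85 CPM in the CTR lungs and 9.71 to 12.7 CPM in the SCR lungs (median 11.6), a log2 fold change of 0.41 (0.18, edgeR adjusted p = 0.226). Unlike the genes above, it was as high in SCR lungs 4 to 6 (11.2, 12.1 and 12.3 CPM) as in lungs 1 to 3 (12.7, 9.71 and 9.86 CPM).

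**Figure D2:**
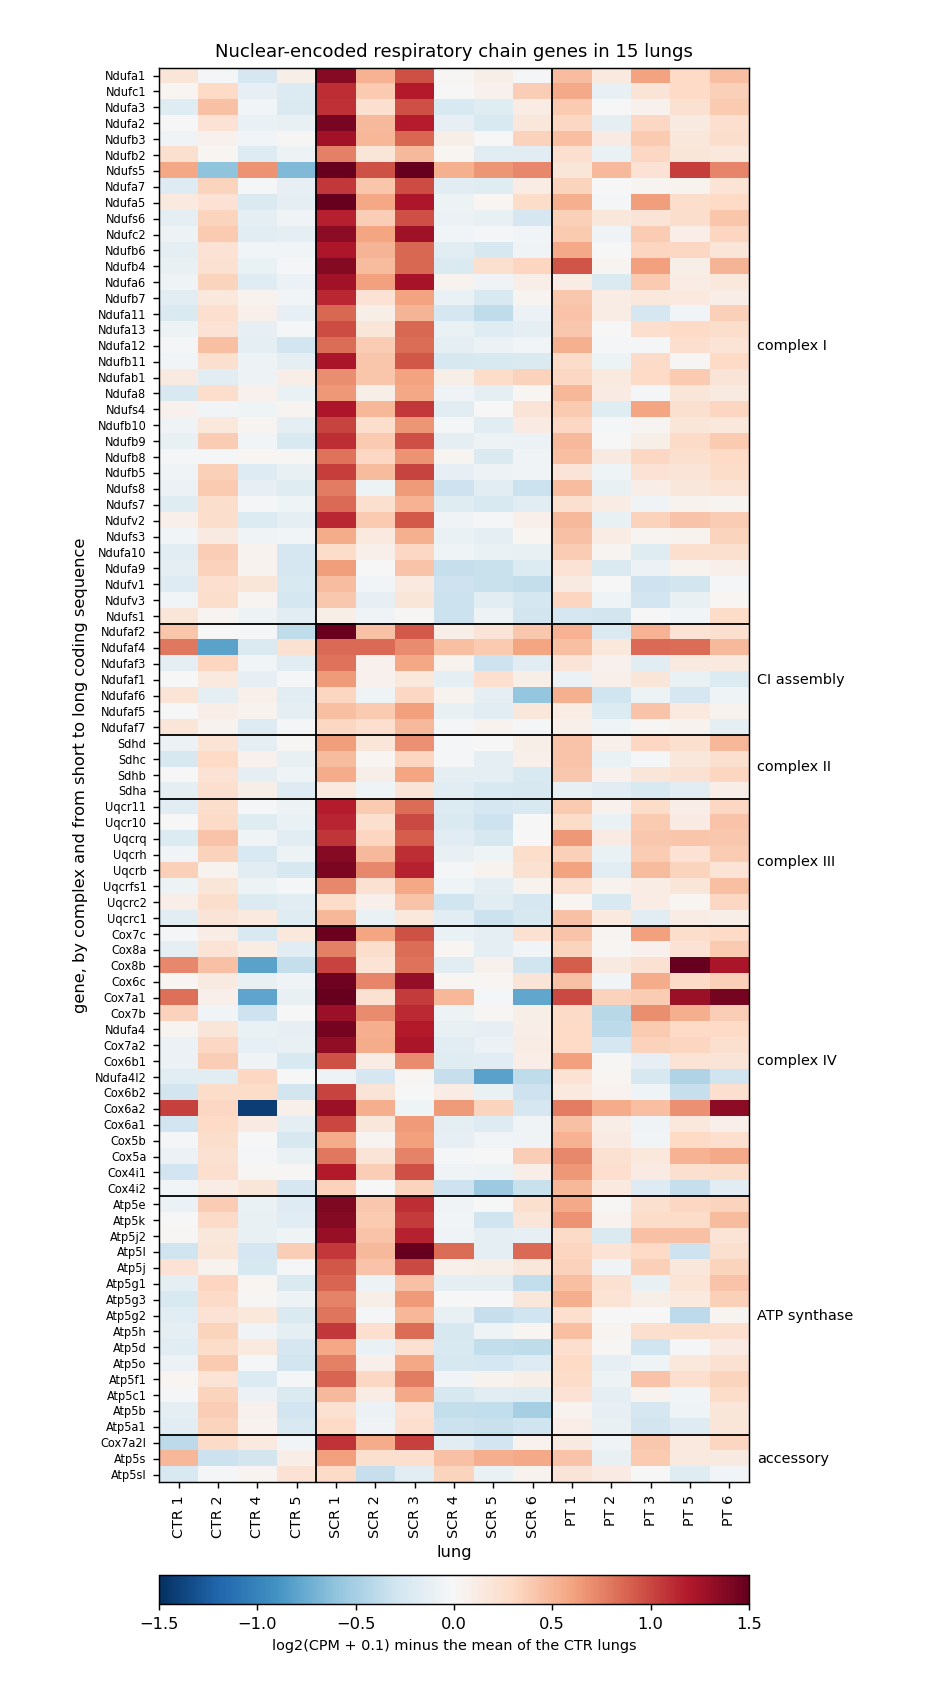
Each row is 1 tested gene (1 of the 90 is left out), ordered by complex and from short to long coding sequence, and each column 1 lung, and colours give log2(CPM + 0.1) minus the mean of the 4 CTR lungs, and reach full depth at a difference of 1.5 either way. SCR lung 1 holds the highest value in 67 genes and SCR lung 3 in 12, with the deepest red in short genes at the top of each complex, and the muscle isoforms Cox6a2, Cox7a1 and Cox8b follow a pattern of their own.

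The difference between members went with the length of their coding sequence. The 23 members with a coding sequence under 300 bases had a median log2 fold change of 0.56 in SCR against CTR lungs, and the 41 members of 300 to 600 bases one of 0.41. The 11 members of 600 to 900 bases had a median of 0.20 and the 15 longer ones of 0.01. No member of the last class reached an unadjusted p under 0.05, against 10, 14 and 2 in the others, all higher. Over all genes, 8.58% were higher and 10.2% lower at this threshold. The classes of 11 and 15 members are too small to set their counts apart from these shares. Over the 90 members, Pearson's r between log2 fold change and log2 coding length was -0.65. The members share the same lungs, so this is a description.

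The same slope ran through all genes. In 10 bins of coding length, the median log2 fold change of SCR against CTR fell from 0.29 in the shortest bin (75 to 534 bases, 1455 genes) to -0.27 in the longest, and 60 of the 90 members fell in the shortest bin. There the members had a median of 0.44 and the other genes of 0.28. The shortest and longest bins differed most in SCR lungs 1, 3 and 2 and PT lung 1. The difference of their medians, each relative to the CTR mean, was 1.38, 1.06, 0.51 and 0.73 on the log2 scale in these lungs. It lay between -0.15 and 0.22 in the CTR lungs, between -0.01 and 0.26 in SCR lungs 4 to 6, and between 0.15 and 0.39 in the other PT lungs. The part of this slope in the members' differences was not tested beyond the scaling by length described next.

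When each library was scaled by bins of main transcript length before the test, the members' median in SCR against CTR lungs went from 0.35 to 0.06, with 6 members higher and 4 lower at an unadjusted p under 0.05 and all 6 among the 26 above. By complex the medians were then 0.06 (complex I), 0.04 (complex II), 0.01 (complex III), -0.02 (complex IV) and -0.03 (ATP synthase), with 0.07 for the supernumerary subunits of complex I, -0.09 for its core, 0.07 for the membrane part and stalk of the ATP synthase and -0.07 for F1. The 6 higher ones were Cox6c, Ndufa5, Ndufab1, Ndufb3, Ndufs4 and Ndufaf4. The 4 lower ones were Ndufa4l2, Cox4i2, Atp5d and Ndufs8. Over all genes, 9.19% were then higher and 8.35% lower. With SCR lungs 1 to 3 left out, the median was -0.05, with 2 members higher (Ndufab1 and Atp5s) and 3 lower (Ndufa4l2, Ndufv1 and Atp5b). In that fit 4.73% of all genes were higher and 5.43% lower, so these counts do not exceed the shares over all genes. Ndufab1 was the only member that was higher at this threshold in the fit to all lungs, with the bins of main transcript length and without these lungs (log2 fold change 0.27, standard error 0.12, edgeR adjusted p = 0.489 without them). Of the windows of Ndufab1, 31.2% also occur in other genes, so part of its counts is uncertain.

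**Figure D3:**
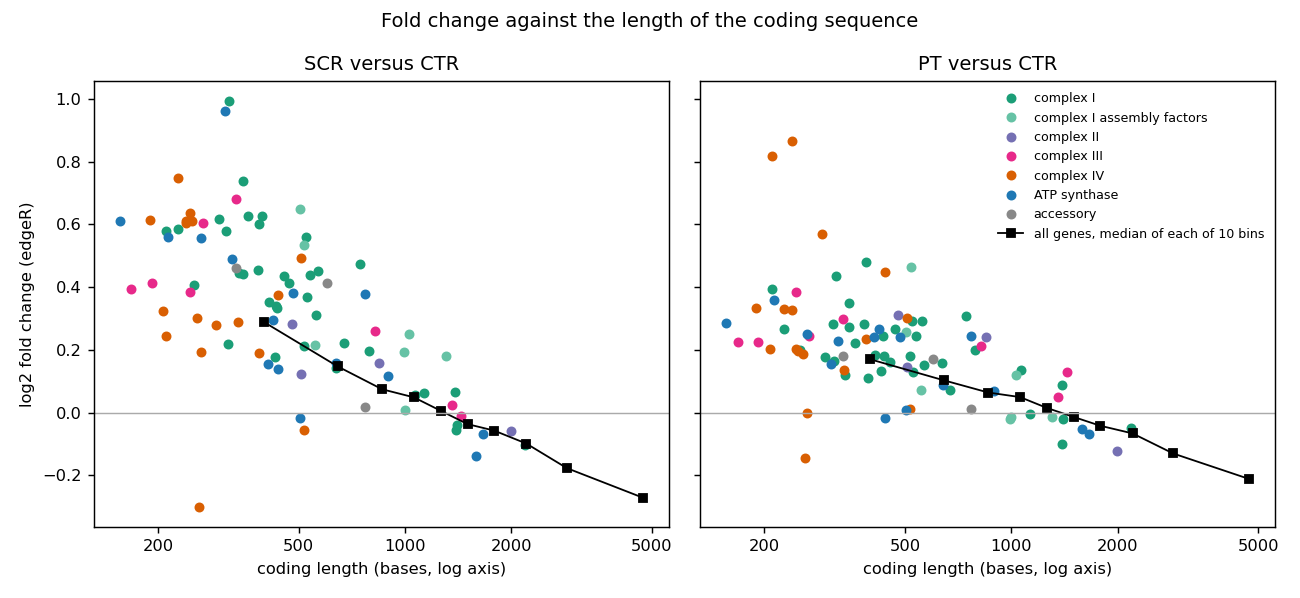
Log2 fold change (vertical axis) against coding length in bases (horizontal log axis) for the 90 members, coloured by complex, in SCR (left) and PT (right) against CTR lungs. Black squares are medians of all genes in 10 bins of coding length, which fall from 0.29 to -0.27 on the left and from 0.17 to -0.21 on the right, and most short members lie above them.

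In the PT lungs the members' median lay nearer to the controls. The CTR lungs serve in both comparisons, so these are not independent. In PT against CTR lungs, 77 of 90 members had a log2 fold change above 0, with a median of 0.20 (range -0.15 to 0.87). At an unadjusted p under 0.05, 2 members were higher (Cox5a and Cox8b) and 0 lower, against 2.93% and 4.73% of all genes. No member and no other gene passed the adjusted threshold (0.0%), while 465 and 751 genes were higher and lower at an unadjusted p under 0.05. By complex, the medians were 0.18 for complex I, 0.19 for complex II, 0.23 for complexes III and IV, 0.23 for the ATP synthase and 0.07 for the complex I assembly factors.

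Cox5a, a subunit on the matrix side of complex IV (chr9:57521232-57532424), measured 56.2, 70.2, 58.4 and 55.6 CPM in the CTR lungs. The PT lungs measured 98.6, 70.1, 66.7, 85.5 and 88.8 CPM, so PT lungs 2 and 3 lay inside the CTR range and the other 3 above it. On the log2 scale PT exceeded CTR lungs by 0.45 (standard error 0.18, edgeR adjusted p = 0.603). In the SCR lungs the gene was at 59.0 to 104 CPM (median 72.8), a log2 fold change of 0.38 (0.17, edgeR adjusted p = 0.258). With the bins of main transcript length, the PT value was 0.25 (0.10, edgeR adjusted p = 0.769).

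The PT and CTR lungs did not overlap, with PT higher, in 3 members, Ndufab1, Ndufb3 and Ndufb8 (3.33% of the members, against 1.51% of all genes). Ndufb8, a subunit of the membrane arm of complex I, measured 49.3, 49.1, 50.8 and 50.3 CPM in the CTR lungs and 68.2, 55.0, 61.8, 58.7 and 61.5 CPM in the PT lungs. Its log2 fold change of 0.29 (standard error 0.18) did not reach an unadjusted p under 0.05 (edgeR adjusted p = 0.743). The spread between lungs used in these tests included that of SCR lungs 1 to 3. Without these 3 lungs in the fit, 26 members were higher and 0 lower in PT than in CTR lungs (unadjusted p under 0.05, median 0.22), against 6.18% and 6.75% of all genes, and again none passed the adjusted threshold. With the PT and CTR lungs alone, 14 were higher and 0 lower, against 4.74% and 6.05% of all genes. With the bins of main transcript length, 1 member was higher (Cox5a) and 1 lower (Ndufa4l2), with a median of 0.03. The shares of all genes were then 2.95% higher and 3.42% lower.

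Set directly against each other, PT lungs had lower values than SCR lungs in most members, within the spread between lungs. The median log2 fold change of PT against SCR was -0.15, with 68 of 90 members below 0. At an unadjusted p under 0.05, 0 members were higher and 2 lower, against 6.19% and 5.6% of all genes, and 0 of the 90 passed the adjusted threshold (0.0378% of all genes). The 2 lower ones were Atp5l (log2 fold change -0.81, standard error 0.33, edgeR adjusted p = 0.346) and Ndufa6 (-0.52, 0.23, edgeR adjusted p = 0.405). Ndufa6, the complex I subunit of this family with the largest level per length (154 CPM per kilobase), measured 74.4, 59.1, 90.2, 74.5 and 76.6 CPM in the PT lungs and 66.2 to 165 CPM in the SCR lungs (median 89.6). SCR lungs 1 to 3, at 165, 105 and 162 CPM, lay above every PT lung, and lungs 4 to 6 did not. Without SCR lungs 1 to 3 the median turned to 0.26, with 33 members higher in PT lungs and 0 lower, against 5.26% and 4.11% of all genes.

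Several subunits exist as a common form and a form made in particular tissues, and the share of the tissue form was taken from counts per length of the file's gene models. These shares depend on the length used, and the mean per main transcript length is given beside those that it moves most. Cox4i2, the lung-enriched form of Cox4 that is tied to oxygen sensing, made up 37.3%, 31.4%, 36% and 29.4% of the Cox4 pair in the CTR lungs. In the SCR lungs its share was 21.9% to 29.7%, and in the PT lungs 31.2%, 31.9%, 28.8%, 25.2% and 27.3%. Among the SCR lungs, lung 4 alone overlapped the CTR lungs in this share, and no test was run on it. Per main transcript length the mean share was 20.9% in CTR, 15.7% in SCR and 17.5% in PT lungs. The level of Cox4i2 itself was 53.7, 59.7, 62.4 and 46.4 CPM in the CTR lungs and 37.8 to 70.2 CPM in the SCR lungs (median 49.7), and that of Cox4i1 was 177, 256, 218 and 219 CPM in the CTR lungs and 204 to 491 CPM in the SCR lungs (median 255). The log2 fold change of Cox4i2 was -0.05 (standard error 0.19) and that of Cox4i1 0.49 (0.24, edgeR adjusted p = 0.271). Cox4i2 is itself one of 10 markers in the list of pericytes and smooth muscle, which stood at a mean log2 CPM of 5.89 to 6.38 in CTR and 5.52 to 6.22 in SCR lungs. The part of cell composition in this share was not tested.

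Ndufa4l2, the relative of Ndufa4 that is induced by hypoxia, was the member with the lowest log2 fold change in both comparisons with the controls. It measured 22.3, 22.5, 31.2 and 25.2 CPM in the CTR lungs and 14.3 to 25.5 CPM in the SCR lungs (median 20.4). The PT lungs measured 29.1, 25.5, 21.2, 18.3 and 20.4 CPM. The groups overlapped, and the log2 fold change of SCR against CTR was -0.30 (standard error 0.17, edgeR adjusted p = 0.345). It was -0.54 (0.14, edgeR adjusted p = 0.11) with the bins of main transcript length and -0.48 (0.18, edgeR adjusted p = 0.464) without SCR lungs 1 to 3. As a share of the pair with Ndufa4 it was 21.7% ± 3.99 in CTR and 13.8% ± 3.66 in SCR lungs (SD, n = 4 and 6), and per main transcript length 8.55% and 5.15%.

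The muscle forms of complex IV, Cox6a2, Cox7a1 and Cox8b, are made in heart, skeletal muscle and, for some, brown fat. Cox8b measured 6.25, 5.15, 2.12 and 2.90 CPM in the CTR lungs and 7.15, 4.15, 4.43, 11.4 and 8.95 CPM in the PT lungs, with 3.05 to 7.69 CPM in the SCR lungs (median 4.15). PT lungs 5 and 6 were the highest of all, and CTR lung 4 the lowest. The log2 fold change of PT against CTR was 0.82 (standard error 0.38, edgeR adjusted p = 0.645). Cox7a1 ranged from 2.17 to 6.80 CPM in the CTR lungs, from 2.18 to 13.9 CPM in the SCR lungs and from 4.88 to 10.5 CPM in PT lungs, with a log2 fold change of 0.87 (0.45, edgeR adjusted p = 0.672) for PT against CTR. Cox6a2 ranged from 2.99 to 16.7, from 6.82 to 19.96 and from 11.2 to 20.9 CPM in the same order, and its PT against CTR log2 fold change was 0.57 (0.38).

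Whole lungs hold the cardiac muscle sleeve of the pulmonary veins, and 12 markers of cardiac muscle, all detected, varied widely between lungs. Their mean log2 CPM was 5.52, 4.81, 2.58 and 4.25 in the CTR lungs, 2.62 to 4.88 in the SCR lungs, and PT lungs stood at 5.07, 4.72, 4.33, 4.45 and 6.19. CTR lung 4, the lowest in all 3 muscle forms among the controls, was the lowest here as well, and PT lung 6, the highest in Cox6a2, the highest. White adipocyte markers were at 4.65 in PT lung 5, the lung highest in Cox8b, and at 0.81 to 3.28 in all other lungs. The part of muscle and fat in these values was not tested. In their shares of each pair, the muscle forms took 2.25% to 14.6% (Cox6a2), 5.01% to 13.9% (Cox7a1) and 2.91% to 9.57% (Cox8b) in the CTR lungs.

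**Figure D4:**
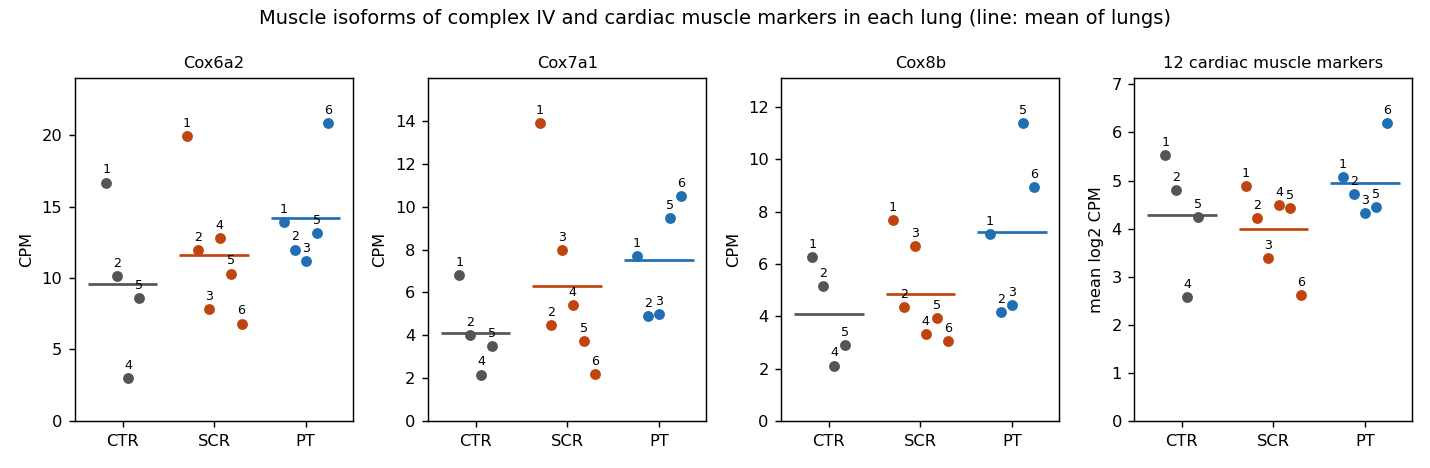
CPM (vertical axis, from 0) of the muscle isoforms Cox6a2, Cox7a1 and Cox8b, and the mean log2 CPM of 12 cardiac muscle markers, in every lung by group (horizontal axis), with points for numbered lungs and lines for group means. CTR lung 4 is the lowest control in all 4 panels and PT lung 6 is among the 2 highest PT lungs in each.

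Among the remaining pairs, Cox6b2, the testis form, made up 3.96% to 5.53% of the Cox6b pair in the CTR lungs, 2.76% to 5.45% in the SCR lungs and 3.08% to 4.66% in the PT lungs. Per main transcript length its CTR range was 10.7% to 14.6%. The testis form Cox7b2 was counted in 8 of 15 lungs, at 0.233 CPM or less. The 3 genes of subunit c of the ATP synthase encode the same mature protein. Atp5g3 made up 74.3% ± 1.43, 76.6% ± 2.33 and 76.8% ± 0.934 of their summed level per length in CTR, SCR and PT lungs (SD, n = 4, 6 and 5), and Atp5g1 8.67%, 7.97% and 8.79% (19.7%, 18.3% and 20% per main transcript length). All windows of Atp5g2 and 66% of those of Atp5g1 occur in other genes, so the shares of these genes are uncertain.

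Partner genes of the chain outside the naming rule were read from lists, and their counts stand beside 8.58% of all genes higher and 10.2% lower in SCR against CTR lungs. Log2 fold changes of SCR lungs for these and the lists below include SCR lungs 1 to 3 and are not given without them. Among the 13 mitochondrially encoded subunits, mt-Atp6, mt-Atp8, mt-Co2, mt-Nd3 and mt-Nd4l had 0 counts in every lung, while mt-Co1 averaged 9289 CPM in the CTR lungs. Why they had no counts was not tested, so their absence is not read as low expression. Of the 13, 7 passed the filter, all with a positive log2 fold change in SCR (median 0.52) and PT lungs (median 0.40) against CTR. These 7 did not follow the order of lungs of the nuclear members: their mean log2 CPM was 10.89 and 10.35 in SCR lungs 1 and 3, 9.52 to 10.82 in the CTR lungs, and highest in SCR lung 6 (11.16). One of them, mt-Nd1 of complex I, reached an unadjusted p under 0.05 in SCR against CTR (log2 fold change 0.63, standard error 0.27, adjusted p = 0.232). Of 6 nuclear genes of the chain whose names fall outside the rule, 2 very short ATP synthase subunits, 2010107E04Rik (0.79, 0.28, adjusted p = 0.158) and Usmg5 (0.78, 0.32, adjusted p = 0.207), were higher in SCR lungs. Of 23 tested complex IV assembly factors, 6 were higher and 0 lower in SCR lungs (median 0.31), led by Cox20 (0.61, 0.18, adjusted p = 0.123), Cmc1 (0.55, 0.19, adjusted p = 0.154) and Coa6 (0.59, 0.21, adjusted p = 0.158). Of 9 complex I assembly factors outside the rule, 2 were higher, Lyrm2 (0.53, 0.15, adjusted p = 0.12) and Tmem126b (0.42, 0.20, adjusted p = 0.258). The assembly lists of complexes II, III and V held 0 genes at this threshold in SCR against CTR lungs, with medians of 0.33, 0.27 and 0.15.

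The citric acid cycle, which feeds electrons to the chain, and glycolysis held few genes at the same unadjusted threshold, which 8.58% of all genes passed as higher and 10.2% as lower. Of 14 genes of the citric acid cycle, Sucla2, a subunit of succinyl-CoA synthetase, was higher in SCR lungs (0.44, standard error 0.20, adjusted p = 0.242) and Ogdh, of the oxoglutarate dehydrogenase complex, lower (-0.46, 0.15, adjusted p = 0.136). Sucla2 was at 106.8 to 128.7 CPM in SCR lungs 1 to 3, 78.71 to 91.12 in lungs 4 to 6 and 62.64 to 96.15 in CTR lungs. Ogdh was at 214.9 to 218.0, 205.4 to 232.5 and 231.0 to 383.1 CPM in the same order. Of 17 glycolytic genes, 0 were higher and 2 lower, Hk1 (-0.41, 0.13, adjusted p = 0.141) and Pfkp (-0.43, 0.16, adjusted p = 0.173), with a median of -0.14. Pfkp was at 38.21 to 43.76 CPM in SCR lungs 1 to 3, 58.14 to 64.37 in lungs 4 to 6 and 58.57 to 87.16 in CTR lungs. Hk1 was at 56.0 to 68.04, 58.9 to 65.35 and 68.88 to 99.61 CPM in the same order. Of 15 regulators of mitochondrial biogenesis, Tfam, which packages mitochondrial DNA, was higher (0.34, 0.11, adjusted p = 0.144). Lower were the coactivator Pprc1 (-0.81, 0.24, adjusted p = 0.124), the receptor Ppard (-0.39, 0.13, adjusted p = 0.144) and Nrf1 (-0.24, 0.10, adjusted p = 0.211). Pprc1 was at 15.85 to 18.03 CPM in SCR lungs 1 to 3, 24.61 to 33.37 in lungs 4 to 6 and 25.61 to 55.69 in CTR lungs. In SCR lungs 1 to 3 and 4 to 6, Ppard was at 19.55 to 26.64 and 23.07 to 25.51 CPM, and Nrf1 at 28.91 to 31.77 and 27.79 to 31.27. Coding sequences have 4932 (Pprc1), 3069 (Ogdh), 2835 (Hk1) and 2352 bases (Pfkp), and the part of length was not tested. No gene of these lists passed the adjusted threshold.

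At the same threshold, 3 of 14 genes of the outer membrane and import were higher in SCR lungs and 0 lower (8.58% and 10.2% of all genes), Tomm7 (0.69, standard error 0.24, adjusted p = 0.162), Hspe1 (0.94, 0.39, adjusted p = 0.212) and Tomm22 (0.36, 0.15, adjusted p = 0.216). Of 8 antioxidant genes, Sod2, the manganese superoxide dismutase of the matrix, was higher (0.41, 0.19, adjusted p = 0.246). In PT lungs against CTR, where 2.93% of all genes were higher and 4.73% lower, 1 gene of all these lists was higher, Cox20 (0.41, 0.19, adjusted p = 0.643). Lower were Ogdh (-0.34, 0.15, adjusted p = 0.623) and Cat, the peroxisomal catalase (-0.38, 0.16, adjusted p = 0.603). Ribosomal protein genes, chosen after their values were seen, were also highest in SCR lungs 1 and 3. The 83 cytosolic ones had a mean log2 CPM of 8.76 and 8.70 in SCR lungs 1 and 3 and 7.42 to 7.75 in the CTR lungs, and 46 were higher in SCR lungs at the unadjusted threshold. The 76 mitochondrial ones had 5.15 and 5.04 in these lungs and 4.36 to 4.59 in the CTR lungs, and 21 were higher.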

How the data were processed

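Bulk lung RNA was sequenced in 15 libraries, 1 per mouse (4 CTR, 6 SCR, 5 PT). Per the labels and methods, the authors trimmed single-end reads with cutadapt 1.15 and used Bowtie2 2.3.3.1, STAR 2.5.2b, SAMtools 1.5 and featureCounts 1.5.3 with GRCm38 to make the deposited raw counts per gene (46603 genes). Strand and multi-mapping settings of the counting are not given in the sources used here. The deposited FPKM values (16137 genes) were normalized by the authors so that, multiplied by gene length, their sorted values are the same in every lung. The GC content deposited with each gene is in percent. No per-sample column was left unused.

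Counts were fitted with edgeR 4.0.16 (R 4.3.3, limma 3.58.1) by the quasi-likelihood test with TMM scaling (factors 0.879 to 1.08), a filter on low counts that kept 15870 of 27075 genes with a read, 1 fit to all lungs by group, and Benjamini-Hochberg adjustment over all genes tested. The labels name separate lungs, and p-values measure the spread between them. Total counts per lung were 12767431 to 22109856, and 1 CPM therefore stands for more than 10 reads. Per-lung values are CPM, and group summaries are medians and counts with no test of the set. Coding and main transcript lengths came from GENCODE vM21 by Ensembl ID. Shared windows are the 50-base windows of a member's main transcript that also occur, on either strand, in any GENCODE vM21 transcript of another gene. The scripts were tested on simulated data.

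Alternatives were DESeq2 1.42.0, RLE factors, library size only, other filters, limma on log2(FPKM + 1) and log2(FPKM + 0.1), offsets by 20 bins of GC content or gene length, sex read from the libraries (females were SCR lungs 4 and 6 and PT lungs 3 and 5), a replicate block, only the 2 groups compared, each lung left out, and SCR lungs 1 to 3 left out. Offsets by main transcript length were added after the data were seen.

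The members, gene lists and tests were chosen with earlier results of these data known. Named genes were members with an adjusted p under 0.05, in each complex the 3 with the smallest unadjusted p under 0.05 against CTR and the one with the largest level per length, the isoform pairs, the members that failed the filter, and up to 3 genes per pathway list. The core, F1 and length classes, the ribosomal protein groups, the printed promoters and further named genes were chosen after values were seen. One member is counted in the summaries and not reported by itself here.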

Additional observations from a re-analysis of the deposited data

Results flagged for a closer look

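In 9 of 108 sets of lungs, 1 lung lay far from the others of its group by Dixon's test, and chance gives about 5 percent of such sets. Among the CTR lungs, lung 2 was high in Atp5e (119 CPM, others 80.0 to 85.6) and Cox7a2 (115 CPM, others 85.1 to 87.0), lung 1 was high in the mean log2 CPM of the complex I assembly factors (3.73, others 3.42 to 3.47), and lung 5 in that of the accessory genes (4.76, others 4.63 to 4.65). Among the SCR lungs, lung 1 was high in Cox6b2 (22.7 CPM, others 9.07 to 12.8). Among the PT lungs, lung 1 was high in Cox4i1 (339 CPM, others 234 to 258) and lung 6 in Cox6a2 (20.8 CPM, others 11.2 to 13.9). PT lung 2 was low in Cox7a2 (77.3 CPM, others 109 to 117) and PT lung 5 in Atp5l (0.661 CPM, others 0.989 to 1.08).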

How the results depend on the processing

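The absence of members past the adjusted threshold held under every alternative except DESeq2 (1 member, SCR against CTR, where it called 560 of 27075 genes). The number at an unadjusted p under 0.05 did not hold: in SCR against CTR lungs (26) it was 13 with gene length bins (median 0.12), 10 with main transcript length bins (median 0.059), 42 with sex as a covariate, and 5 without SCR lungs 1 to 3 (median -0.0546). The shares of all genes, higher and lower, were then 9.05% and 8.99%, 9.19% and 8.35%, 10.8% and 10.7%, and 4.73% and 5.43%. In PT against CTR lungs (2) the number was 8 with library size only, 4 with GC bins, 8 with sex, 14 with only the 2 groups compared and 26 without SCR lungs 1 to 3, and the median was 0.0312 with main transcript length bins. Of all genes, 4.22% were higher and 2.33% lower with library size only, and 3.84% and 5.76% with GC bins. These shares were 2.44% and 4.45% with sex, 4.74% and 6.05% with the 2 groups, and 6.18% and 6.75% without SCR lungs 1 to 3. In PT against SCR lungs (2, both lower) the number was 1 with library size only and 5 with main transcript length bins (3 higher and 2 lower, median -0.0015). It was 1 with sex and 33, all higher, without SCR lungs 1 to 3 (median 0.26). The shares of all genes, higher and lower, were then 7.52% and 3.77%, 6.79% and 6.94%, 6.69% and 5.09%, and 5.26% and 4.11%. Leaving out 1 lung at a time gave 5 (without CTR lung 4) to 40 (without SCR lung 4 or 5) in SCR against CTR, with 9 without SCR lung 1, 10 without SCR lung 3 or CTR lung 5 and 15 without CTR lung 1. The same step gave 0 to 5 in PT against CTR, beside all-gene shares of 1.59% to 4.65% higher and 1.97% to 6.72% lower. In PT against SCR it gave 0 to 7, beside 4.45% to 7.6% higher and 3.51% to 7.09% lower. Medians of SCR against CTR, PT against CTR and PT against SCR were 0.21 to 0.42, 0.16 to 0.28 and -0.21 to 0.0236, the last above 0 without SCR lung 1. Without SCR lungs 1 to 3, Cox7a2 turned to -0.016 in SCR against CTR lungs and Ndufa6 to 0.073 in PT against SCR lungs. With a replicate block the counts were 11, 0 and 2, against all-gene shares of 4.95% and 7.11%, 2.02% and 1.84%, and 7.44% and 5.82%. The labels do not say that the numbers pair lungs. Correlations of 12 same-numbered pairs were -0.30 to 0.38, with 4 over 0.1, and 2 of 15 lungs correlated best with their own number. With so few lungs per group, these values cannot exclude a pairing. The causes of these shifts were not tested.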
